A study of Homo sapiens with 16 samples.

Results

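The 10 genes described here are the glutathione peroxidase genes GPX1, GPX3, GPX4, GPX7 and GPX8, the thioredoxin reductase genes TXNRD1 and TXNRD2, the methionine sulfoxide reductase gene MSRB1, and the selenoprotein genes SELENOP and SELENOW. They were chosen by symbol as the glutathione peroxidases and selenoproteins of interest, with no threshold on the measured values, from 43388 genes listed, and each of the 10 passed the filter on low values that left 16122 genes to test. The cells were cardiomyocytes made by differentiating WTC11 human induced pluripotent stem cells, an established line, by a Wnt-modulating protocol with a frozen progenitor stage. All libraries came from 1 line, and the paper speaks of an RNA-seq result as coming from 1 differentiation. The p-values therefore measure the spread between wells, not between differentiations. The Day 16 group was kept in RPMI/B27, a basal medium with a serum-free supplement, and was the start of the experiment. The Day 30 groups had 2 further weeks in 1 of 3 media, all with the B27 supplement: RPMI/B27 with its standard glucose, RPMI_glcM/B27 with glucose lowered to 5 mM to match plasma, and HPLM/B27. HPLM is a medium with the polar metabolites and salts of human plasma. Each group had 4 wells. The deposited design text speaks of 3 wells per medium, but 4 are labelled in each group, and none of the 16 libraries was left out. No gene was altered in any group.

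Glutathione peroxidases reduce hydrogen peroxide or lipid hydroperoxides with electrons from glutathione or, for the endoplasmic reticulum members, from protein disulfide isomerases. Most of them, like the thioredoxin reductases and MSRB1, are selenoproteins: they carry selenocysteine in the active site, which the ribosome inserts at an in-frame UGA codon that would otherwise end translation. In the heart, GPX4 protects membranes from lipid peroxidation and ferroptosis, GPX1 clears cytosolic and mitochondrial peroxide, and GPX3 is the secreted form found in plasma.

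The codon that separates the selenoproteins from their cysteine relatives can be read in the coding sequence. The stretches below, from GENCODE 44 on hg38, show the active-site codon in capitals with 18 bases on each side, for the 5 glutathione peroxidases whose RNA is compared below.
GPX1: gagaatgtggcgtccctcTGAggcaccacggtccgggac
GPX3: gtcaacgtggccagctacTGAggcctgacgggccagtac
GPX4: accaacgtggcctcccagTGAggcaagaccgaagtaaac
GPX7: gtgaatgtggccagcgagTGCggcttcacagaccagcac
GPX8: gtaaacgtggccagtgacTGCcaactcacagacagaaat
In GPX1 the capitals are codon 49 of 203 at chr3:49358132-49358134 on the minus strand, in GPX3 codon 73 of 226 at chr5:151025469-151025471 on the plus strand, and in GPX4 codon 73 of 197 at chr19:1105403-1105405 on the plus strand. These 3 genes have TGA, the selenocysteine codon. GPX7 (codon 57 of 187, chr1:52606714-52606716, plus strand) and GPX8 (codon 79 of 209, chr5:55161024-55161026, plus strand) have TGC, a cysteine codon, and no in-frame TGA before the stop. Of the 39 bases shown, GPX3 shared 29 with GPX7 and 25 with GPX1, and GPX1 shared 18 with GPX8.

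The other members differ in where the selenocysteine codon lies. In both thioredoxin reductases it is the last codon but one, and the coding sequence ends as follows, with the selenocysteine codon in capitals and the stop codon after it.
TXNRD1: atcctccaggctggctgcTGAggttaa
TXNRD2: cccacggtgacaggctgcTGAgggtaa
The codon lies at chr12:104348413-104348415 on the plus strand in TXNRD1 and at chr22:19877111-19877113 on the minus strand in TXNRD2. It is codon 13 of 87 in SELENOW and codon 95 of 116 in MSRB1. SELENOP, the plasma selenium carrier, has 10 in-frame TGA codons, from codon 59 to codon 378 of 381. In the transcripts used, the first TGA lies before the last exon-exon junction in 7 of the 8 selenoprotein members, by 108 bases in GPX1, 243 in GPX3, 345 in GPX4, 246 in SELENOW, 37 in MSRB1, 74 in TXNRD2 and 360 in SELENOP, and in the last exon in TXNRD1. These coordinates are hg38, the build the authors aligned to.

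The values are TPM, transcripts per 1000000, which allow levels to be compared between genes because they are per length. Whole reads behind the TPM were recovered and came to 7744768 to 16183655 on genes per library. RNR1, the small ribosomal RNA of mitochondria, spanned 49.5 to 29276 TPM and reached 14387 and 29276 TPM in Day 30 RPMI/B27 replicates 3 and 4 against 1545 and 619 in replicates 1 and 2. The same replicates 3 and 4 had median-of-ratios factors of 0.788 and 0.722, against 1.15 and 1.17 in replicates 1 and 2, so most genes have lower TPM in those libraries. The median log2 difference over all 16122 genes was -0.28 (Day 30 RPMI/B27), -0.22 (RPMI_glcM/B27) and -0.29 (HPLM/B27) against Day 16, and near 0 after dividing each library by its factor. The members' changes are therefore given in TPM and as scaled TPM, which is TPM divided by that factor and thus relative to the typical gene. The cells expressed cardiomyocyte genes in each group: TNNT2, cardiac troponin T, averaged from 2932 TPM at Day 16 to 4236 TPM in Day 30 RPMI/B27, and the 11 cardiomyocyte markers summed to 11753 to 16501 TPM per library.

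GPX4 was the most abundant member in each library, and made up 81.6% to 88.0% of the summed TPM of the 5 glutathione peroxidases. Over the 16 libraries it averaged 556 TPM ± 81.5 (SD, n = 16), above 99.5% of the genes tested. SELENOW, a small cytosolic selenoprotein abundant in muscle, followed with 166 TPM ± 21.5. GPX3 (37.2 ± 13.3), GPX8 (27.4 ± 6.55), GPX1 (27.1 ± 4.11) and TXNRD1 (24.1 ± 4.37) lay close together over all libraries. Their order was not the same in each group: GPX3 per GPX8 within a library was 0.678 to 0.948 at Day 16 and 2.41 to 3.15 in HPLM/B27. SELENOP (7.14 ± 3.02), GPX7 (7.11 ± 3.20) and MSRB1 (6.82 ± 1.91) had means that lay within their spread over all libraries, and TXNRD2 was lowest with 1.94 ± 0.585 TPM. The lowest library held 17 reads of GPX7, 17 of TXNRD2 and 19 of MSRB1, so counting error is large for these 3 genes, while GPX4 had at least 1998 reads.

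**Figure D1:**
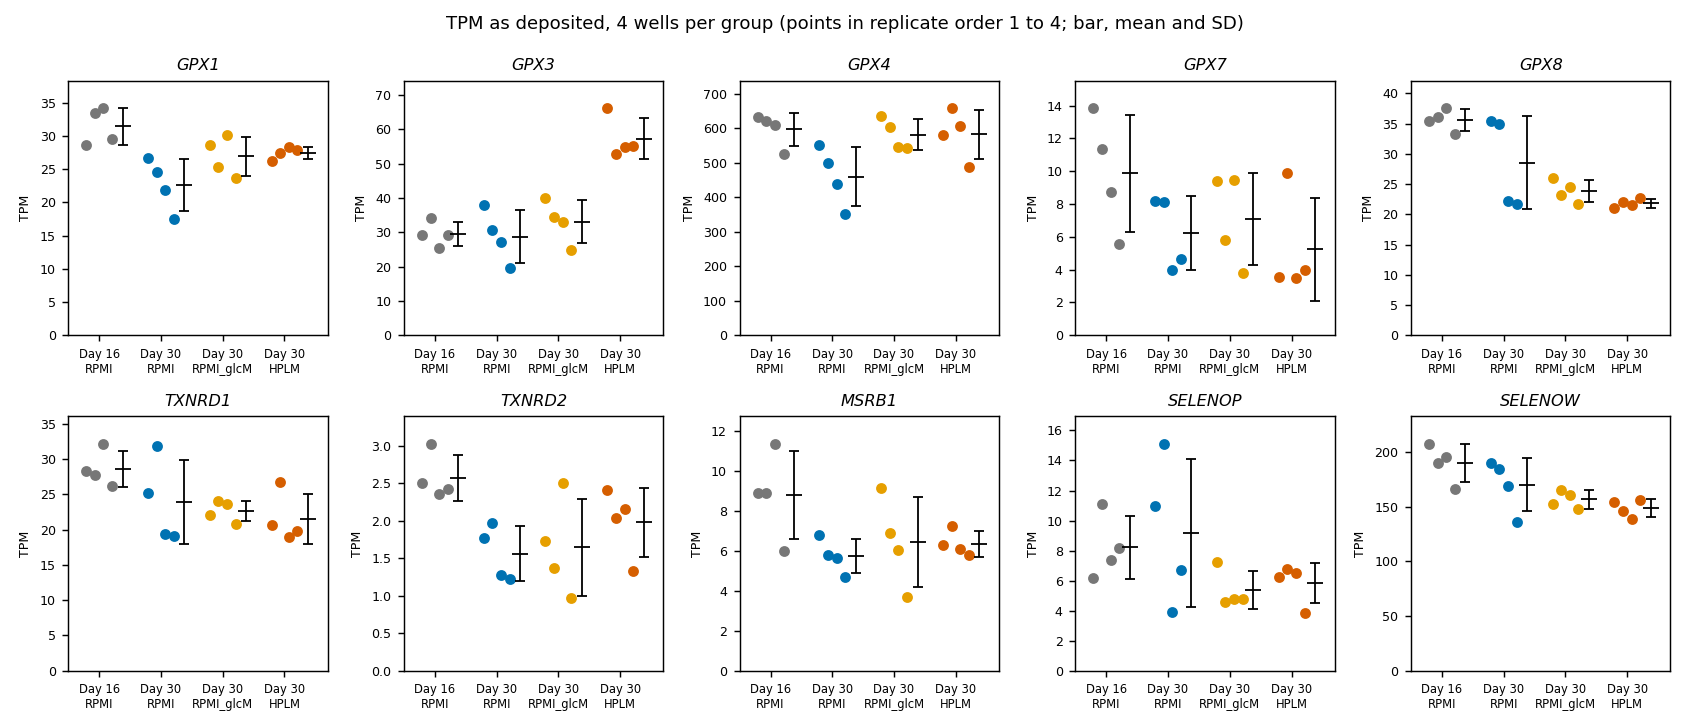
TPM (vertical axis, from 0) of the 10 members in the 4 groups, 1 point per well in replicate order, with the mean and SD as the bar to the right of each group. GPX3 in HPLM/B27 lies at 53.0 to 66.2 TPM, above each library of the other groups, and the Day 30 RPMI/B27 points of replicates 3 and 4 lie low for most genes.

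Across the 6 comparisons, few members passed the test, and GPX3 and GPX8 were the members that passed most often. After 2 weeks in RPMI/B27, GPX1 and GPX4 were lower than at Day 16 (2 of 10 members, where 19.9% of all tested genes passed). In RPMI_glcM/B27, GPX8 was lower than at Day 16 (1 of 10, against 21.1% of all genes). In HPLM/B27, GPX3 was higher and GPX8 and SELENOW were lower than at Day 16 (3 of 10, against 25.4%). Between media at Day 30, 0 of 10 members passed between RPMI_glcM/B27 and RPMI/B27 (2.20% of all genes called), with 2 members called by limma-voom and 1 at an unadjusted p under 0.05, where 14.9% of all genes were. GPX3, 1 of 10, was higher in HPLM/B27 than in RPMI/B27 (2.41% of all genes called). Between HPLM/B27 and RPMI_glcM/B27, which were matched for glucose, 0 of 10 members passed on TPM in a comparison in which 0.0682% of all genes passed, with 1 member called by limma-voom and 1 at an unadjusted p under 0.05, where 6.53% of all genes were. These counts come from limma on log2(TPM + 1) over all 16122 genes with Benjamini-Hochberg adjustment in each comparison. The shares of members called were near or below the shares of all genes in the comparisons with Day 16. No share of all genes is given for the limma-voom calls.

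Members whose 4 wells all lay on one side of the other group's wells in TPM were counted as well, with the share of all genes in parentheses. Against Day 16, RPMI/B27 had 0 such members above (1.72%) and 2 below (16.2%), GPX1 and TXNRD2. RPMI_glcM/B27 had 0 above (4.24%) and 3 below (25.9%), GPX8, SELENOW and TXNRD1. HPLM/B27 had 1 above (3.77%), GPX3, and 3 below (32.1%), GPX1, GPX8 and SELENOW. Against RPMI/B27 at Day 30, RPMI_glcM/B27 had 0 above (4.40%) and 0 below (2.60%), and HPLM/B27 had 1 above (4.13%), GPX3, and 0 below (3.17%). HPLM/B27 against RPMI_glcM/B27 had 1 above (2.41%), again GPX3, and 0 below (4.86%).

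On scaled TPM the counts against Day 16 were 0 for RPMI/B27 (17.5% of all genes called), 2 for RPMI_glcM/B27 (27.5%) and 3 for HPLM/B27 (25.3%). Between media they were 2 for RPMI_glcM/B27 against RPMI/B27 (12.1%), 4 for HPLM/B27 against RPMI/B27 (12.9%), and 1 for HPLM/B27 against RPMI_glcM/B27 (1.63%). The members behind these counts are GPX3, GPX4, GPX8 and, once, GPX1. The median of the 10 members' log2 differences against Day 16 in TPM was -0.37 in each of the 3 media, and on scaled TPM it was -0.04, -0.13 and -0.06, beside a median near 0 over all genes.

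**Figure D2:**
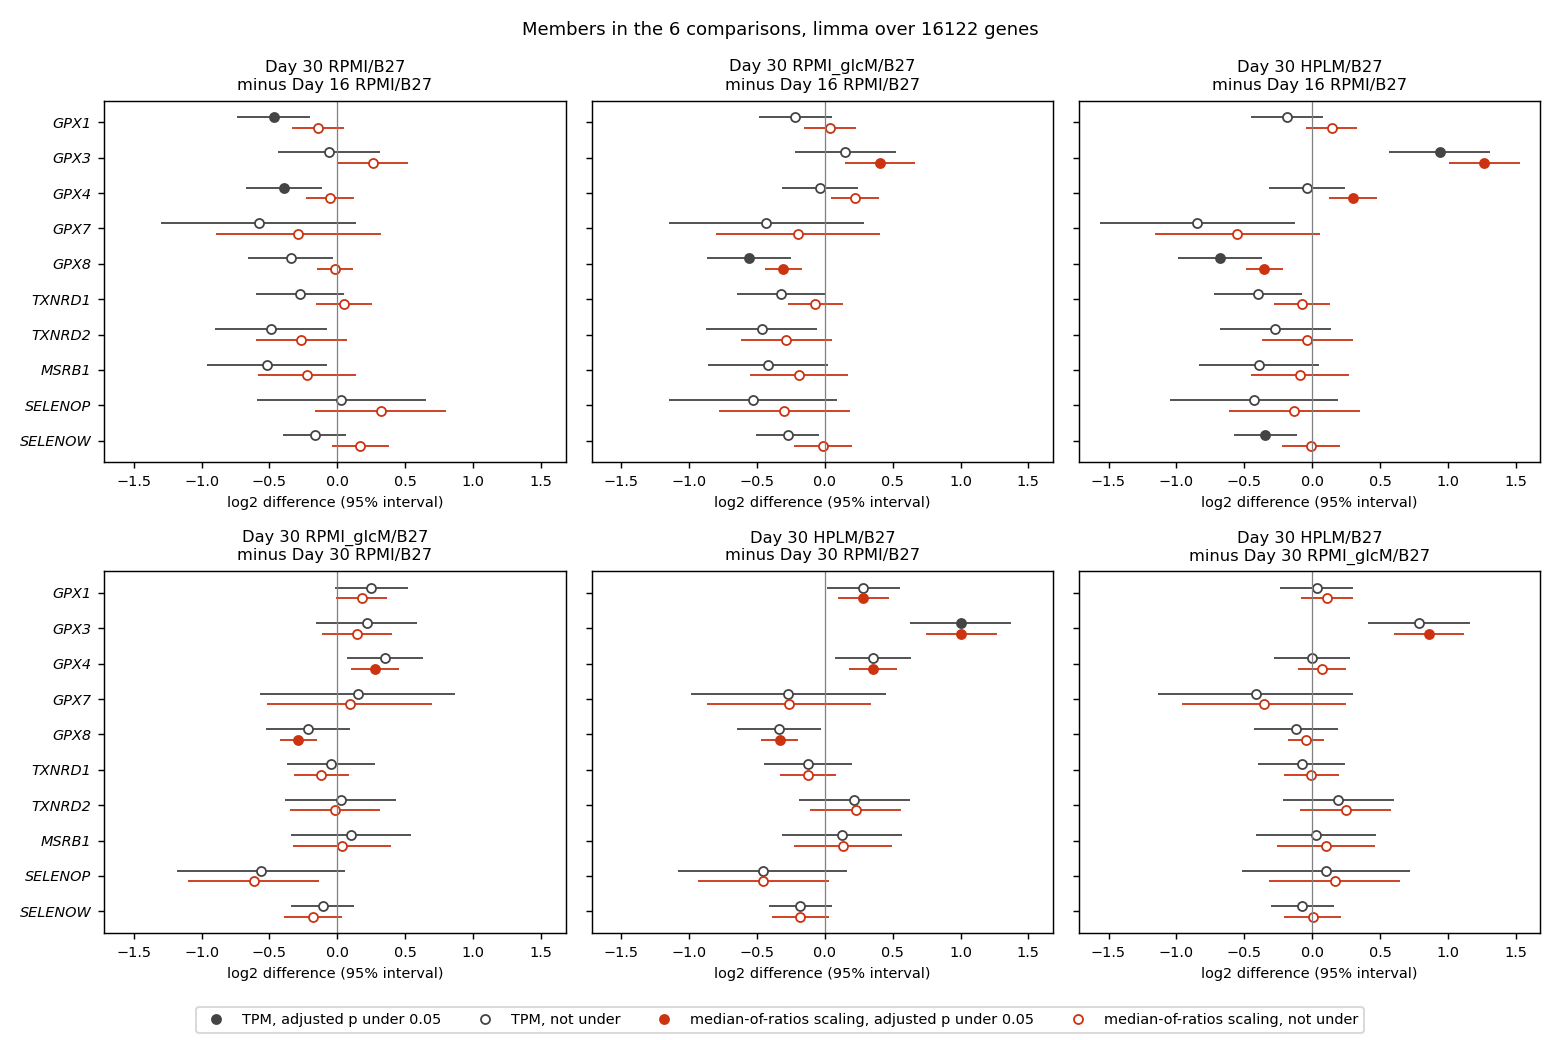
Log2 differences (horizontal axis, with 95% intervals) of the 10 members in the 6 comparisons, on TPM in grey and on scaled TPM in red, with filled points for an adjusted p under 0.05. GPX3 lies to the right in the 3 panels that hold HPLM/B27, at 0.79 to 1.00 on TPM, and the grey points in the panels against Day 16 are mostly left of the red ones.

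**Figure D3:**
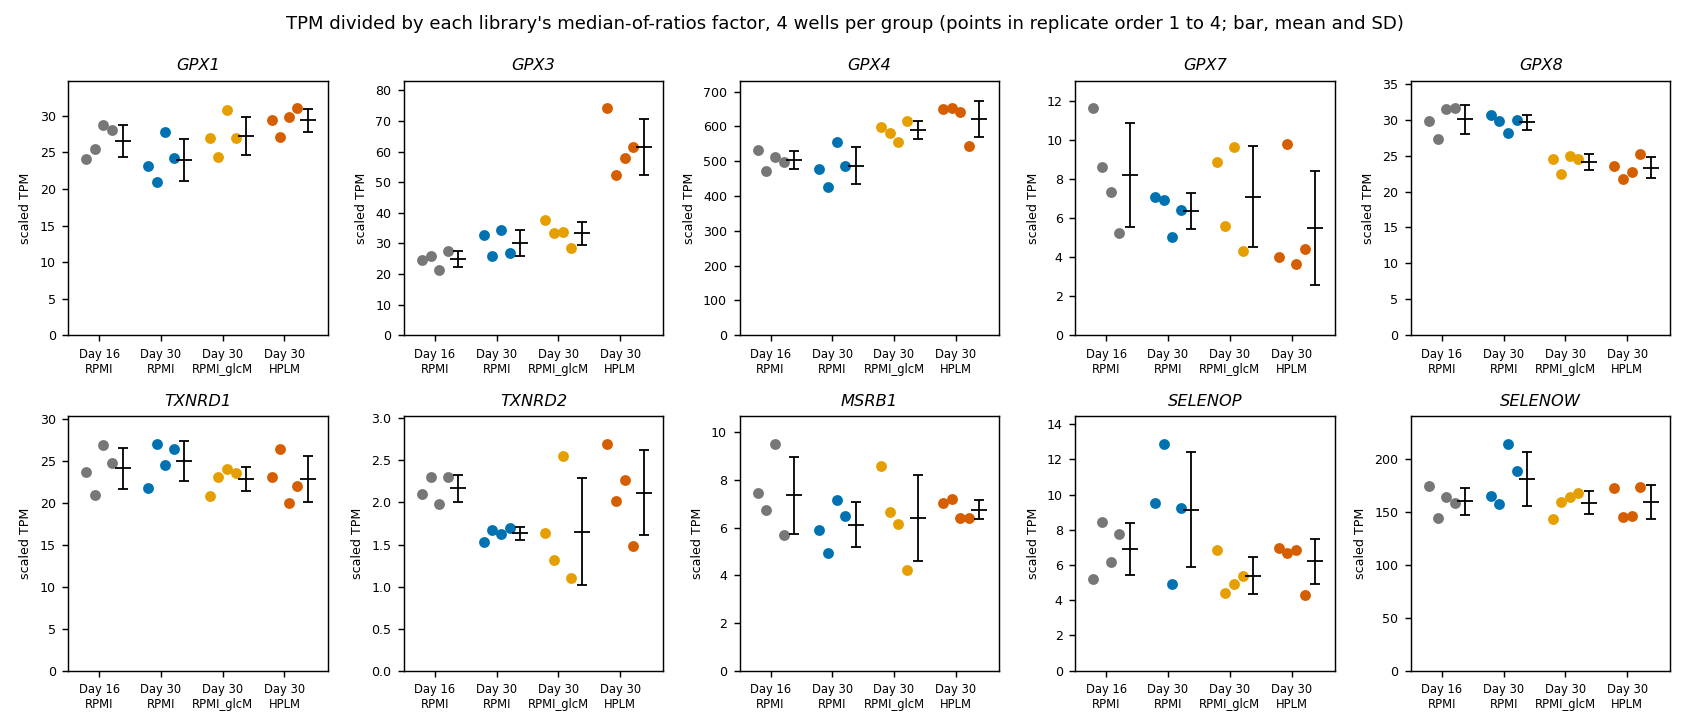
Scaled TPM (vertical axis, from 0) of the 10 members in the 4 groups, drawn as the plot of TPM. The GPX8 wells of Day 30 RPMI/B27 lie at 28.1 to 30.6, with Day 16 and above the other media, and GPX3 in HPLM/B27 lies at 52.5 to 74.1.

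GPX3, the secreted glutathione peroxidase, was the member that differed most between groups. Its TPM in the 4 wells were 29.1, 34.1, 25.4 and 29.1 at Day 16, 37.8, 30.5, 27.2 and 19.5 in Day 30 RPMI/B27, 40.0, 34.6, 32.9 and 25.0 in RPMI_glcM/B27, and 66.2, 53.0, 54.9 and 55.2 TPM in HPLM/B27. Each HPLM/B27 well lay above each of the other 12, which overlapped among themselves. The HPLM/B27 libraries held 409 to 573 reads of GPX3, and the others 166 to 355. The HPLM/B27 mean was 1.95 times that of Day 16 (log2 difference 0.94, SE 0.18, 95% interval 0.57 to 1.31, limma adjusted p = 0.00137) and 1.99 times that of Day 30 RPMI/B27 (1.00, SE 0.18, interval 0.63 to 1.38, adjusted p = 0.00604). Against RPMI_glcM/B27 it was 1.73 times as high (0.79, SE 0.18, interval 0.41 to 1.16), without overlap, but the limma adjusted p over all genes was 0.110.

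On scaled TPM, GPX3 in HPLM/B27 stood 1.27 above Day 16, 1.01 above RPMI/B27 and 0.86 above RPMI_glcM/B27 on the log2 scale, with limma adjusted p of 2.9e-06, 0.000123 and 0.00226. RPMI_glcM/B27 was then also above Day 16, by 0.41 (SE 0.12, adjusted p = 0.0220), which TPM did not show (0.15, adjusted p = 0.582). RPMI/B27 and RPMI_glcM/B27 at Day 30 were not told apart (0.14, interval -0.12 to 0.40 on scaled TPM). The contrast with RPMI/B27 did not pass when the fit held only these 2 groups (adjusted p = 0.0637). The study picked GPX3 for PCR from these same libraries, so its difference here is not independent of that choice. By that PCR, on further differentiations of several cell lines, the study reported higher GPX3 in HPLM/B27 than in RPMI_glcM/B27. In TPM the cardiomyocyte markers summed to 15979 to 16501 in HPLM/B27, above each well of RPMI/B27 (11753 to 15397) and of Day 16 (11830 to 12250). RPMI_glcM/B27, with 14589 to 15984 TPM, overlapped HPLM/B27 at its upper end. The summed scaled TPM of these markers was 16054 to 18342 in HPLM/B27, inside the range of 11823 to 19535 in RPMI/B27. It was 14807 to 16582 in RPMI_glcM/B27 and 9296 to 11505 at Day 16. The median log2 difference of the 11 markers in TPM was -0.06 between HPLM/B27 and RPMI/B27 (5 of 11 above 0) and 0.01 between HPLM/B27 and RPMI_glcM/B27 (6 of 11 above 0). RNR2, the large ribosomal RNA of mitochondria, took 46.2% to 48.3% of the TPM in HPLM/B27, 42.0% to 45.5% in RPMI_glcM/B27, 41.4% to 43.9% at Day 16 and 41.0% to 48.1% in RPMI/B27. The part of these markers and of RNR2 in the GPX3 result was not tested. In bulk RNA, more cells of a type and more RNA per cell cannot be told apart.

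GPX8, a membrane-bound peroxidase of the endoplasmic reticulum, moved in the opposite direction. Its TPM were 35.5, 36.0, 37.5 and 33.2 at Day 16, 35.4, 34.9, 22.2 and 21.6 in Day 30 RPMI/B27, 26.0, 23.2, 24.5 and 21.6 in RPMI_glcM/B27, and 21.0, 22.0, 21.5 and 22.7 TPM in HPLM/B27. The wells of RPMI_glcM/B27 and of HPLM/B27 all lay below those of Day 16, and the RPMI/B27 wells fell into a pair at the Day 16 level (replicates 1 and 2) and a pair at the level of the other media (replicates 3 and 4, the libraries high in RNR1). Against Day 16 the log2 difference was -0.56 in RPMI_glcM/B27 (SE 0.15, limma adjusted p = 0.0124) and -0.68 in HPLM/B27 (SE 0.15, adjusted p = 0.00353). On scaled TPM the 4 RPMI/B27 wells came together at 28.1 to 30.6, inside the Day 16 range of 27.3 to 31.6 and above RPMI_glcM/B27 (22.4 to 25.0) and HPLM/B27 (21.8 to 25.3). GPX8 was then lower than in Day 30 RPMI/B27 by a log2 difference of -0.29 in RPMI_glcM/B27 and -0.33 in HPLM/B27 (SE 0.06 each, limma adjusted p = 0.00893 and 0.00297). Against Day 16, RPMI/B27 gave -0.34 in TPM (adjusted p = 0.103), which passed without RPMI/B27 replicate 1 (-0.46, adjusted p = 0.0275) or 2 (-0.45, adjusted p = 0.0298), and -0.02 on scaled TPM. Between media in TPM the differences were -0.22 and -0.34 and did not pass (adjusted p = 0.536 and 0.286). Without RPMI/B27 replicates 3 and 4 they were -0.54 and -0.66 and passed (adjusted p = 0.00401 and 0.000896). HPLM/B27 and RPMI_glcM/B27 did not differ detectably (-0.05, interval -0.18 to 0.09 on scaled TPM).

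The summed level of fibroblast-like markers was also lower in RPMI_glcM/B27 and HPLM/B27 than at Day 16. The 12 markers, 7 of which passed the filter, summed to 245 to 447 TPM at Day 16, 153 to 303 TPM in RPMI/B27, 120 to 164 TPM in RPMI_glcM/B27 and 124 to 187 TPM in HPLM/B27. None of the 12 was at 0 in each library of the Day 16 or RPMI/B27 groups, and DPT in RPMI_glcM/B27 and MEOX1 in HPLM/B27 were. The 7 smooth muscle-like markers summed to 177 to 520 TPM over all libraries, with MYH11 at 0 throughout, and the 10 endothelial-like markers to 14.7 to 55.7 TPM, with VWF at 0 outside HPLM/B27. Single markers did not all follow their sum. COL1A2, a chain of type I collagen, averaged 62.2, 36.2, 14.6 and 19.9 TPM in the order of the groups above, while POSTN, a matrix protein, was higher than at Day 16 on scaled TPM in RPMI/B27 and RPMI_glcM/B27 (0.81 and 0.76, limma adjusted p = 0.00506 and 0.00520). KCNJ8, a potassium channel on the smooth muscle-like list, was higher on scaled TPM in each Day 30 medium (0.34, 0.48 and 0.40, limma adjusted p = 0.0152, 0.000830 and 0.00365). The part of these cells in the GPX8 result was not tested. Over the 16 libraries, the genes most like GPX8 in log2(TPM + 1) among 9753 genes of at least 5 TPM were SEPT10 (Pearson r = 0.980), SEC24D (0.975) and EIF2AK2 (0.974), a description that the shared scale of each library raises: after scaling the values were 0.931, 0.899 and 0.892. SEC24D, a coat protein of vesicles leaving the endoplasmic reticulum, went from 25.4 TPM at Day 16 to 19.1 TPM in RPMI/B27, 11.7 in RPMI_glcM/B27 and 10.7 TPM in HPLM/B27.

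**Figure D4:**
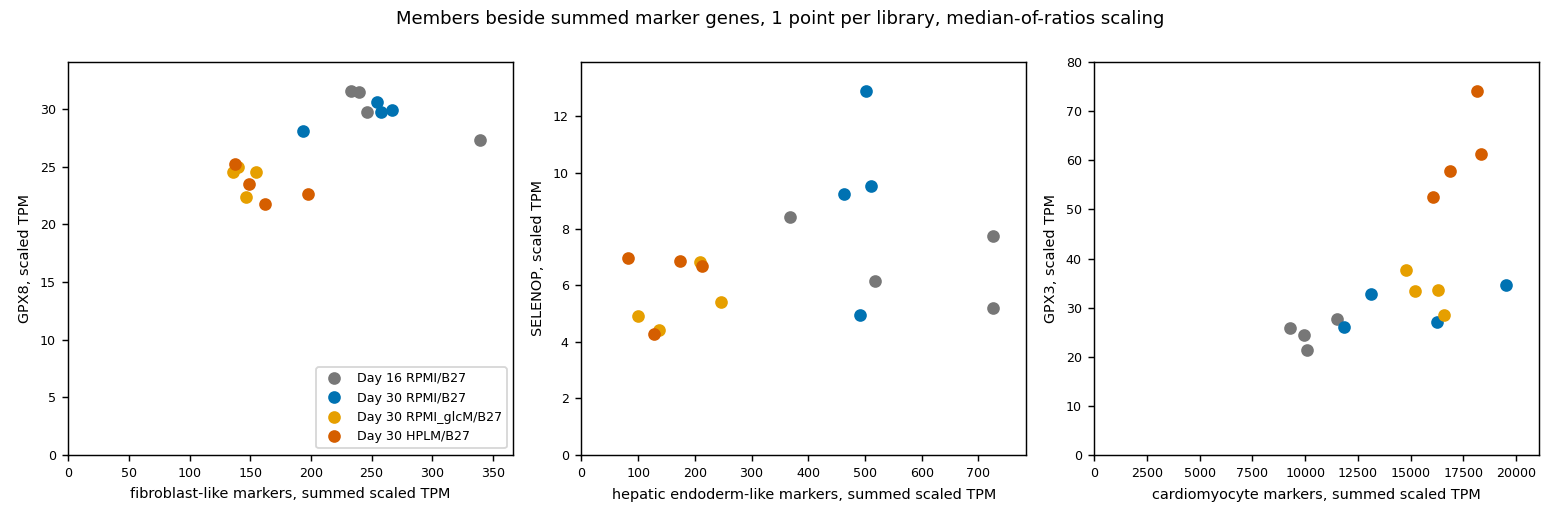
Scaled TPM of GPX8, SELENOP and GPX3 (vertical axes) against the summed scaled TPM of the fibroblast-like, hepatic endoderm-like and cardiomyocyte markers (horizontal axes), 1 point per library. In the first panel RPMI_glcM/B27 and HPLM/B27 lie at 136 to 197 on the marker axis and 21.8 to 25.3 for GPX8. In the third panel HPLM/B27 lies at 16054 to 18342 on the marker axis and 52.5 to 74.1 for GPX3.

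GPX7, the soluble relative of GPX8 in the endoplasmic reticulum, was low and scattered. Its TPM were 13.8, 11.4, 8.71 and 5.53 at Day 16, 8.20, 8.11, 3.96 and 4.62 in RPMI/B27, 9.39, 5.80, 9.47 and 3.78 in RPMI_glcM/B27, and 3.58, 9.91, 3.47 and 3.99 TPM in HPLM/B27. A single HPLM/B27 well, replicate 2, lay apart from the other 3, and all groups overlapped. The largest difference, HPLM/B27 against Day 16, was -0.85 (SE 0.34, limma adjusted p = 0.0757), and it passed without that well (-1.15, adjusted p = 0.0185) or without Day 16 replicate 4 (-1.07, adjusted p = 0.0346). The genes most like it over the 16 libraries were MTCH1 (r = 0.871), MED10 (0.869) and TAF1 (0.867), which fell to 0.689, 0.678 and 0.614 after scaling.

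GPX4, which reduces lipid hydroperoxides in membranes, showed a different picture in TPM and on scaled TPM. Its TPM were 633, 622, 609 and 525 at Day 16, 550, 501, 439 and 351 in RPMI/B27, 634, 605, 545 and 543 in RPMI_glcM/B27, and 579, 658, 607 and 488 TPM in HPLM/B27. RPMI/B27 had the lowest mean, 460 TPM, and all groups overlapped. The drop in RPMI/B27 against Day 16, -0.39 (SE 0.13, limma adjusted p = 0.0473), shrank to -0.05 (interval -0.23 to 0.12) on scaled TPM and to -0.18 without replicates 3 and 4 (adjusted p = 0.387). The call was also lost without Day 16 replicate 1, 2 or 3 or RPMI/B27 replicate 3 or 4 alone (GPX4 adjusted p of 0.117, 0.103, 0.104, 0.0985 and 0.148). On scaled TPM, GPX4 was instead higher in HPLM/B27 than at Day 16 (0.30, SE 0.08, adjusted p = 0.0151, against -0.04 in TPM), and higher than in Day 30 RPMI/B27 in both RPMI_glcM/B27 (0.28, adjusted p = 0.0412) and HPLM/B27 (0.35, adjusted p = 0.0115). In TPM the latter differences were both 0.35, with adjusted p of 0.199 and 0.198. HPLM/B27 and RPMI_glcM/B27 averaged 583 and 582 TPM.

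GPX1, the ubiquitous cytosolic and mitochondrial enzyme, had 28.6, 33.5, 34.2 and 29.5 TPM at Day 16, 26.7, 24.5, 21.9 and 17.5 in RPMI/B27, 28.6, 25.3, 30.1 and 23.7 in RPMI_glcM/B27, and 26.2, 27.4, 28.3 and 27.9 TPM in HPLM/B27. The wells of RPMI/B27 and of HPLM/B27 lay below those of Day 16. RPMI/B27 against Day 16 gave -0.47 (SE 0.13, limma adjusted p = 0.0184), which became -0.14 on scaled TPM (adjusted p = 0.312) and -0.28 without replicates 3 and 4 (adjusted p = 0.125). Leaving out Day 16 replicate 3 alone gave an adjusted p of 0.0607. On scaled TPM, GPX1 was 0.29 higher in HPLM/B27 than in RPMI/B27 at an adjusted p of 0.0490, just under the threshold. GPX1 shares 572 of its 1432 exonic bases with an annotated gene without a symbol on the same strand and has 2 processed pseudogenes. SELENOW and MSRB1 also have a processed pseudogene each. None of these was found by name among the deposited genes, so whether reads were split in the counting cannot be seen.

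Ratios within a library do not depend on how the library is scaled. GPX3 per GPX8, chosen after their values were seen, was 0.831 ± 0.114 (SD, n = 4) at Day 16, 1.02 ± 0.165 in RPMI/B27, 1.38 ± 0.171 in RPMI_glcM/B27 and reached 2.63 ± 0.351 in HPLM/B27. The lowest HPLM/B27 well, 2.41, lay above the highest RPMI_glcM/B27 well, 1.54, and Day 16 (0.678 to 0.948) overlapped RPMI/B27 (0.874 to 1.23). GPX4 per GPX8 was 14.3 to 19.8 in the 8 libraries of Day 16 and RPMI/B27, and 21.5 to 29.9 in the 8 libraries of the media with lower glucose. GPX3 per GPX1 was 1.93 to 2.52 in HPLM/B27 and 0.744 to 1.42 in the other 12 libraries. None of these ratios was among the planned results. They restate the differences of GPX3, GPX4 and GPX8 given above and are not separate support for them. The members were chosen with earlier results of these data known, and no share of other gene pairs that separate the groups in this way is given. GPX3 supplied 8.32% ± 1.26 of the summed glutathione peroxidase TPM in HPLM/B27 and 4.20% ± 0.545 at Day 16.

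**Figure D5:**
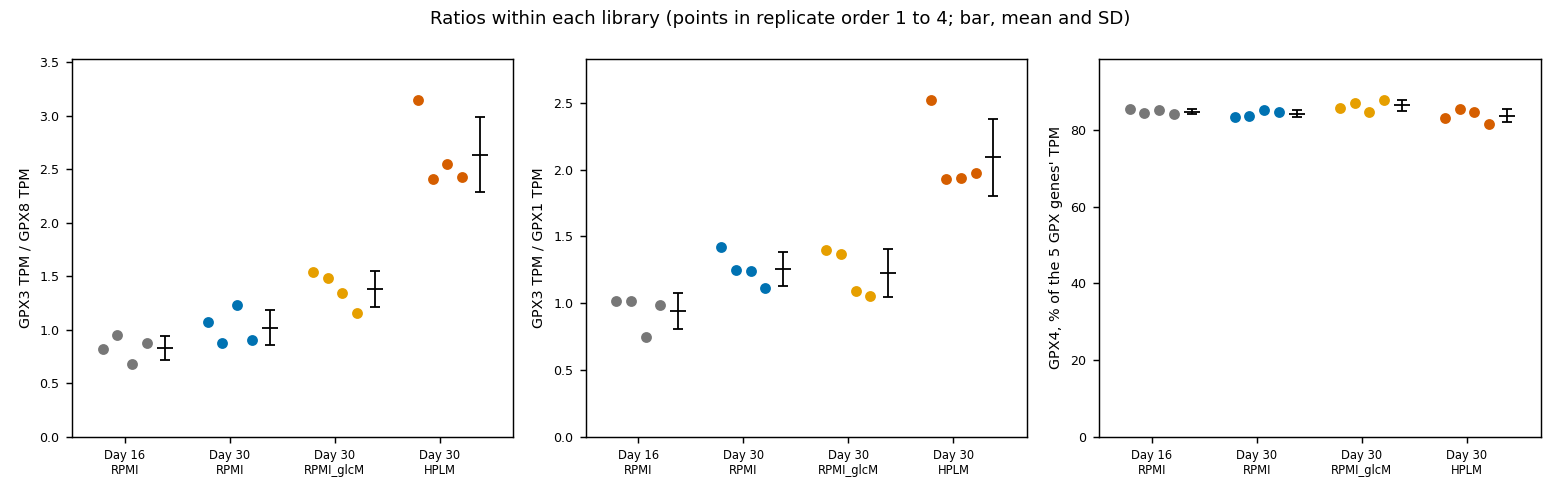
Ratio of GPX3 to GPX8 TPM, ratio of GPX3 to GPX1 TPM, and the percent of the 5 glutathione peroxidase genes' summed TPM due to GPX4 (vertical axes, from 0), 1 point per library, with the mean and SD as the bar to the right of each group. Both GPX3 ratios are highest in HPLM/B27, and the GPX4 percent stays between 81.6% and 88.0%.

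The thioredoxin reductases, which keep cytosolic (TXNRD1) and mitochondrial (TXNRD2) thioredoxin reduced, passed in no comparison of the main test or of that test on scaled TPM. With the replicate number as a block, in TPM, TXNRD2 passed in RPMI/B27 against Day 16 (-0.49, limma adjusted p = 0.0495). TXNRD1 passed with that block in HPLM/B27 against Day 16 (-0.40, limma adjusted p = 0.0295). TXNRD1 averaged 28.6 TPM at Day 16 and, by medium in the order used so far, 23.9, 22.6 and 21.5 TPM at Day 30, and on scaled TPM the 4 means were 24.1, 25.0, 22.9 and 22.9. The scaled difference between HPLM/B27 and Day 16 was -0.07, with an interval of -0.28 to 0.13. In TPM, TXNRD1 passed against Day 16 when only the groups compared were fitted, in RPMI_glcM/B27 (-0.32, limma adjusted p = 0.0297) and in HPLM/B27 (-0.40, adjusted p = 0.0277). Over the remaining libraries it passed in HPLM/B27 without HPLM/B27 replicate 2 (-0.50, limma adjusted p = 0.0320) and in RPMI/B27 without RPMI/B27 replicate 2 (-0.42, adjusted p = 0.0334). TXNRD2 lay between 2.35 and 3.03 TPM at Day 16 and had 1.77, 1.97, 1.28 and 1.23 TPM in RPMI/B27. The RPMI/B27 wells lay below the Day 16 wells on both scales, with a difference of -0.49 in TPM (limma adjusted p = 0.0824) and -0.27 on scaled TPM (adjusted p = 0.277). In TPM it passed without RPMI/B27 replicate 2 (-0.56, adjusted p = 0.0495), and RPMI_glcM/B27 against Day 16 passed without RPMI_glcM/B27 replicate 3 (-0.61, adjusted p = 0.0447). RPMI_glcM/B27 wells started at 0.971 TPM and HPLM/B27 wells at 1.33, and both groups overlapped Day 16. A low count of reads, 17 to 58 per library, limits what can be seen for TXNRD2.

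MSRB1, which repairs oxidised methionine, had 8.89, 8.89, 11.3 and 5.97 TPM at Day 16 and averaged 5.73, 6.44 and 6.34 TPM in the 3 Day 30 media. The groups overlapped, and the largest difference was -0.52 (RPMI/B27 against Day 16, SE 0.21, limma adjusted p = 0.0868), or -0.22 on scaled TPM. In TPM it passed without Day 16 replicate 4 (-0.67, adjusted p = 0.0354).

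SELENOW had 207, 190, 195 and 166 TPM at Day 16, 190, 184, 169 and 136 in RPMI/B27, 152, 165, 161 and 147 in RPMI_glcM/B27, and 154, 146, 139 and 156 TPM in HPLM/B27. The wells of HPLM/B27 and of RPMI_glcM/B27 lay below those of Day 16. The HPLM/B27 difference of -0.35 (SE 0.11, limma adjusted p = 0.0303) was close to the shift of all genes, and on scaled TPM it was -0.01 (interval -0.22 to 0.20). It held without Day 16 replicate 4 and was lost without any other single library of these groups (SELENOW adjusted p from 0.0509 to 0.0946). Without RPMI/B27 replicates 3 and 4, SELENOW was lower in HPLM/B27 than in RPMI/B27 (-0.33, adjusted p = 0.0223).

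SELENOP, a secreted protein made mostly by liver that carries selenium in plasma, had 6.20, 11.1, 7.34 and 8.17 TPM at Day 16, 7.23, 4.60, 4.80 and 4.75 in RPMI_glcM/B27, and 6.22, 6.76, 6.50 and 3.85 TPM in HPLM/B27. In RPMI/B27 it had 15.1 TPM in replicate 2, 3.90 in replicate 3, 6.68 in replicate 4 and a level between the last and the first of these in replicate 1. The RPMI/B27 wells spanned the widest range, and no comparison passed on either scale. Without RPMI/B27 replicates 3 and 4, SELENOP was lower in RPMI_glcM/B27 (-1.15, limma adjusted p = 0.0133) and in HPLM/B27 (-1.05, adjusted p = 0.0112) than in RPMI/B27. The 15 hepatic endoderm-like markers, none of them at 0 throughout a group, summed to 485 to 864 TPM at Day 16, 334 to 590 in RPMI/B27, 97.7 to 222 in RPMI_glcM/B27 and 73.1 to 216 TPM in HPLM/B27. Their part in the SELENOP values was not tested. SELENOP shares 1452 of its 5502 exonic bases with CCDC152 on the other strand, and CCDC152 averaged 1.04 TPM. The kit was stranded, but the strand setting of the counting is not given in the sources used here.

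The other selenoprotein genes showed a fall in SELENON in each medium. Of 17 such genes 12 were tested, and 2, 2 and 4 of the 12 passed against Day 16 in TPM, in the order RPMI/B27, RPMI_glcM/B27, HPLM/B27, where 19.9%, 21.1% and 25.4% of all genes passed. On scaled TPM 4, 2 and 4 passed, beside 17.5%, 27.5% and 25.3%. SELENON, an endoplasmic reticulum protein linked to congenital muscle disease, averaged 34.2 TPM at Day 16 and 18.6, 15.3 and 16.1 TPM at Day 30 (-0.87, -1.13 and -1.04, limma adjusted p = 0.00337, 0.000284 and 0.000569), and was also called on scaled TPM in each. SELENOI, an enzyme of phospholipid synthesis, was lower in RPMI/B27 (-0.66) and HPLM/B27 (-0.60), and TXNRD3, a further thioredoxin reductase, in RPMI_glcM/B27 (-0.53) and HPLM/B27 (-0.68). Both SELENOI calls held on scaled TPM (-0.35 and -0.28, adjusted p = 0.0119 and 0.0265), and the TXNRD3 call held in HPLM/B27 (-0.37, adjusted p = 0.0208) and was lost in RPMI_glcM/B27 (-0.29, adjusted p = 0.0638). SELENOM rose from 22.1 TPM at Day 16 to 35.0 TPM in HPLM/B27 (0.63, adjusted p = 0.0148). On scaled TPM, SELENOM passed in RPMI/B27 as well, and SELENOK, an endoplasmic reticulum protein, was higher in RPMI/B27 and RPMI_glcM/B27. Of the 12, 0 passed between media at Day 30 by limma on TPM, on scaled TPM or by limma-voom, and 1 had an unadjusted p under 0.05 (HPLM/B27 against RPMI_glcM/B27). The median difference against Day 16 of the 12 was -0.28, -0.06 and -0.29, beside -0.28, -0.22 and -0.29 over all genes.

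Among genes that make or insert selenocysteine, or take up selenoprotein P, the receptors for SELENOP differed most in size. Of 10 such genes 9 were tested, and 3 were lower in each Day 30 medium than at Day 16 in TPM, beside the same 19.9%, 21.1% and 25.4% of all genes: LRP2, LRP8 and SEPHS1. LRP2 and LRP8, surface receptors that take up SELENOP among other ligands, went from 7.07 and 4.55 TPM at Day 16 to 1.86 to 2.18 TPM and 1.59 to 2.36 TPM in the Day 30 means, and were also lower on scaled TPM in each medium. SEPHS1, a relative of selenophosphate synthetase, went from 22.7 TPM to between 14.5 and 15.3 TPM, and on scaled TPM it passed in RPMI_glcM/B27 (-0.32, limma adjusted p = 0.0458) and not in RPMI/B27 or HPLM/B27. Between media 0 of 9 passed by limma on either scale or by limma-voom, and 1 had an unadjusted p under 0.05 (HPLM/B27 against RPMI_glcM/B27).

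In the glutathione system, 27 of 30 genes were tested, and against Day 16 8 fell in RPMI/B27 (19.9% of all genes called in either direction), 8 fell in RPMI_glcM/B27 (21.1%), and 7 fell and 1 rose in HPLM/B27 (25.4%). On scaled TPM the falls numbered 4, 5 and 1 and the rises 3, 4 and 5, beside 17.5%, 27.5% and 25.3% of all genes. MGST1, a membrane-bound enzyme with glutathione transferase and peroxidase activity, was the gene of this list called between media in TPM: it averaged 66.5 TPM at Day 16, 33.0 in RPMI/B27, 18.2 in RPMI_glcM/B27 and 19.9 TPM in HPLM/B27. It was lower in both media with less glucose than in RPMI/B27 (-0.81 and -0.68, limma adjusted p = 0.0167 and 0.0381), and both calls held on scaled TPM, where 4 and 6 of the 27 passed in these comparisons, beside 12.1% and 12.9% of all genes. Between HPLM/B27 and RPMI_glcM/B27 0 of 27 passed by limma on TPM, with 2 at an unadjusted p under 0.05. On scaled TPM 3 passed there, GGT7, GLRX and MGST3, each higher in HPLM/B27 (0.46, 0.72 and 0.37, adjusted p = 0.0220, 0.00116 and 0.0209), beside 1.63% of all genes, and limma-voom also called 3.

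Of the 17 thioredoxin, peroxiredoxin and other antioxidant genes, all tested, 5 were lower than at Day 16 in each medium in TPM (19.9%, 21.1% and 25.4% of all genes called), and on scaled TPM 3, 4 and 5 were lower and 1, 3 and 3 higher (17.5%, 27.5% and 25.3%). TXNIP, a thioredoxin-binding protein known to follow glucose, had the widest difference: 110 TPM at Day 16, 139 in RPMI/B27, 4.50 in RPMI_glcM/B27 and 4.39 TPM in HPLM/B27. It was lower than in RPMI/B27 by a log2 difference of -4.51 and -4.58 (limma adjusted p = 4.42e-05 and 1.19e-05), the 1 of 17 called in TPM in each of these comparisons (2.20% and 2.41% of all genes), and both calls held on scaled TPM. On scaled TPM 6 and 8 of the 17 passed there, beside 12.1% and 12.9% of all genes, and 4 and 8 by limma-voom. Between HPLM/B27 and RPMI_glcM/B27 0 of 17 passed by limma on either scale or by limma-voom, with 3 at an unadjusted p under 0.05. Of 16 NRF2 target genes tested, 5, 2 and 5 were lower than at Day 16, 1 was higher in RPMI_glcM/B27, beside the same shares of all genes (4, 4 and 3 in either direction on scaled TPM), and 0 passed between media by limma on TPM (4, 2 and 2 at an unadjusted p under 0.05 3, 2 and 1 on scaled TPM and 3, 2 and 0 by limma-voom, for RPMI_glcM/B27 and HPLM/B27 against RPMI/B27 and HPLM/B27 against RPMI_glcM/B27). TXNRD1 is 1 of the 16. PRDX1, a peroxiredoxin, averaged 132 TPM at Day 16 and 86.2, 73.4 and 73.7 TPM at Day 30, and on scaled TPM the differences were -0.32, -0.57 and -0.50 (limma adjusted p = 0.0847, 0.00281 and 0.00711), so that its call in RPMI/B27 was lost. The core of the antioxidant response element bound by NRF2, TGACNNNGC, was sought on either strand from 250 bases before to 50 bases after the start. It was found in 13.3% of 35116 RefSeq promoters on GRCh38. Of the 15 promoters of the 10 members, 3 had a match, and they belong to 2 genes, TXNRD1 and SELENOP.

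The genes whose pattern was most like that of GPX3 over the 16 libraries were GPR158 (Pearson r = 0.912), ENO3 (0.889) and RCAN1 (0.880), with values of 0.932, 0.916 and 0.905 after scaling. ENO3 is the muscle enolase of glycolysis, and averaged 122 TPM at Day 16, 113 in RPMI/B27, 122 in RPMI_glcM/B27 and 182 TPM in HPLM/B27. RCAN1, an inhibitor of calcineurin, averaged 28.7, 25.5, 28.9 and 69.3 TPM in the same order. The libraries fall into 4 groups, and these correlations, given as a description, hold the differences between groups as well as those between wells.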

How the data were processed

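RNA-seq of 16 wells was analysed, 4 in each of 4 groups. The authors deposited TPM values per gene, made, per the labels and the study's methods, with STAR 2.5.3a on hg38 and featureCounts 2.0.3, with R 4.1.3. The annotation, gene lengths and strand setting are not given in the sources used here. Whole reads per gene were recovered from steps in the TPM. The main test was limma 3.58.1 (R 4.3.3, lmFit and eBayes with trend) on log2(TPM + 1), over the 16122 genes averaging 1 TPM or more and all 16 libraries, with Benjamini-Hochberg adjustment in each of 6 comparisons and a threshold of 0.05. Fold changes on this scale understate those of low genes. Scaled TPM were divided by median-of-ratios factors. Alternatives were a pseudocount of 0.1 TPM, no filter, that scaling, fits of only the groups compared, a replicate block, log RNR1 as a covariate, limma-voom on the recovered reads of 15423 genes (mean of 10 reads or more) and leaving out each library. Leaving out Day 30 RPMI/B27 replicates 3 and 4 together was added after seeing the data. The fits were tested on simulated data. Counting error alone would understate the spread between wells, so errors are SDs over wells. The members, gene lists and marker lists were chosen with earlier results of these data known. Named genes are the members, list genes past the threshold between Day 30 media or else up to 4 with the largest change against Day 16, and the 3 genes most like GPX3, GPX7 and GPX8. COL1A2, POSTN, KCNJ8, SELENOK, GGT7, GLRX and MGST3 were named after their values were seen. Sequences come from GENCODE 44 transcripts, and promoters from RefSeq on GRCh38. Python 3.11.15 with pandas 2.3.3 was used for summaries.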

Additional observations from a re-analysis of the deposited data

Results flagged for a closer look

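In each of the 40 groups of 4 wells (10 genes in 4 groups), the distance of the highest or lowest well from its nearest neighbour was compared with the range of the group, a rule that chance alone meets in about 1 in 20 groups. It was met in 2. GPX7 in Day 30 HPLM/B27 replicate 2 was 9.91 TPM against 3.47 to 3.99 TPM in the other wells, a gap of 0.920 of the range. SELENOP in Day 30 RPMI_glcM/B27 replicate 1 was 7.23 TPM against 4.60 to 4.80 TPM, a gap of 0.922 of the range. Both are genes with few reads, and the cause was not tested.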

How the results depend on the processing

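The counts of members past the threshold changed with the scaling, the fit and the libraries included. Shares of all genes called are given above for TPM and scaled TPM only. Counts from the other fits therefore cannot be set against the share of all genes. For Day 30 RPMI/B27 against Day 16 the count of 2 became 0 with median-of-ratios scaling, with only these groups, with the RNR1 covariate, with limma-voom and without RPMI/B27 replicates 3 and 4, and 1 without a filter. For RPMI_glcM/B27 against Day 16 the count of 1 became 2 with scaling and 3 with only these groups or limma-voom. For HPLM/B27 against Day 16 the count of 3 became 4 with only these groups, TXNRD1 being added, and stayed 3 with scaling or limma-voom, where GPX4, higher, took the place of SELENOW. For RPMI_glcM/B27 against RPMI/B27 the count of 0 became 2 with scaling, limma-voom or those replicates left out. For HPLM/B27 against RPMI/B27 the count of 1 became 4 with scaling or those replicates left out, 3 with limma-voom and 0 with only these groups. For HPLM/B27 against RPMI_glcM/B27 the count of 0 became 1 with scaling, the RNR1 covariate or limma-voom. Leaving out 1 library at a time gave 0 to 5, 1 to 2 and 2 to 4 members for RPMI/B27, RPMI_glcM/B27 and HPLM/B27 against Day 16, and 0, 1 and 0 between media. GPX4 reversed against Day 16: 0.30 in HPLM/B27 with scaling and 0.30 with limma-voom, and 0.23 in RPMI_glcM/B27 with limma-voom. GPX3 in HPLM/B27 passed against Day 16 and RPMI/B27 in each of the 8 fits without 1 library of the groups compared.

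Same-numbered wells showed little shared deviation (24 pairs, median r = 0.0231, from -0.0660 to 0.211, with 6 over 0.1). The main test, set without covariates, did not take the numbers as pairs. Yet the summed TPM of the 10 members was lowest in replicate 4 of each group. There it was 832 TPM at Day 16, 582 (RPMI/B27), 794 (RPMI_glcM/B27) and 785 (HPLM/B27). Replicate 4 also had the lowest median-of-ratios factor at Day 16 (1.05), in RPMI/B27 (0.722) and in RPMI_glcM/B27 (0.880). In HPLM/B27 its factor was 0.900, beside 0.892 in replicate 1. Most genes thus had low TPM in these libraries, and GPX4 made up most of the sum. In TPM, GPX4 and MSRB1 were also lowest in replicate 4 throughout. The other members were not, and SELENOW was highest in replicate 4 of HPLM/B27 (156 TPM). On scaled TPM, GPX4 was highest in replicate 4 of RPMI_glcM/B27 (617) and lowest in replicate 4 of HPLM/B27 (543). Whether the members share a replicate effect was not tested. With a replicate block the members past the threshold numbered 4, 2 and 5 for RPMI/B27, RPMI_glcM/B27 and HPLM/B27 against Day 16, 1 and 2 for RPMI_glcM/B27 and HPLM/B27 against RPMI/B27, and 1 for HPLM/B27 against RPMI_glcM/B27. The share of all genes called with the block is not given, so a rise over all genes cannot be told from a rise in the members. Counts of 17 to 64 reads for GPX7, 17 to 58 for TXNRD2 and 19 to 58 for MSRB1 limit what can be detected for these genes.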
